A study of Mus musculus with 11 samples.

Results

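Cyclins and cyclin-dependent kinases (CDKs) were followed as 10 named genes, the cyclins Ccna2, Ccnb1, Ccnb2, Ccnd1, Ccnd2, Ccnd3, Ccne1 and Ccne2 and the kinases Cdk1 and Cdk2. They are 10 of the 20893 genes in the deposited table, taken by symbol from a given list. All 10 passed the filter on low values (at least 0.5 eRPKM in at least 3 libraries), as did 14244 genes in total. Whole livers of C57BL/6 mice were profiled by bulk RNA-seq, and each value is an eRPKM, exon reads per kilobase corrected for library size. The control group held 4 livers with the genotype label ROSA26-rtTA-IRES-EGFP plus WT, from mice on doxycycline food for 7 days. The induced groups carried ROSA26-rtTA-IRES-EGFP together with tetYAP and were fed doxycycline for 3 days (4 livers) or 7 days (3 livers). The tetYAP allele is a Col1A1 transgene for a constitutively active YAP that lacks an inhibitory phosphorylation site. The study's methods describe a cross with Alb-CRE, whose albumin promoter acts in hepatocytes, and an rtTA allele that Cre switches on. Cre is not part of the genotype labels, and the ages of the mice were not given. Homogenized whole liver keeps its other cell types, so that more cells of a dividing type and more RNA per cell cannot be told apart in any of the values given here.

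Cyclins are proteins that bind and activate CDKs, and most rise and fall with the cell cycle while the kinases change less. D cyclins (Ccnd1 to Ccnd3) pair with Cdk4 and Cdk6, carry growth signals into the cycle and start the inactivation of Rb. E cyclins (Ccne1, Ccne2) pair with Cdk2 at the start of DNA synthesis, Ccna2 pairs with Cdk2 and later Cdk1, and the B cyclins pair with Cdk1 to drive mitosis. Hepatocytes of the adult liver are mostly quiescent, and Ccnd1 is known as the cyclin that mitogens raise when they re-enter the cycle.

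All 10 are protein-coding genes, and their positions are given on the mm9 assembly with GENCODE M1. Ccna2 spans chr3:36463788-36471072, Ccne2 chr4:11118498-11131926 and Ccnd2 chr6:127075797-127101066. Ccnd1 (chr7:152115836-152125774) and Ccne1 (chr7:38883003-38892553) share chromosome 7, and Ccnb2 is at chr9:70255496-70269361. Cdk1 (chr10:68799383-68815686) and Cdk2 (chr10:128134995-128142107) share chromosome 10, Ccnb1 is at chr13:101548605-101556525 and Ccnd3 at chr17:47642000-47736632. Only Ccne2 and Ccnd3 are on the plus strand. Alignment did not use strand, so reads from exons that a gene shares with an antisense neighbour cannot be assigned to either. Such exons made up 14.6% of the exon bases of Ccna2 (with Exosc9), 21.3% of Ccnd1 (with Oraov1), 15.7% of Ccnd3 (with Bysl) and 17.4% of Ccne2 (with Ints8). RefSeq names a pseudogene copy for each of Ccnb1, Ccnb2 and Ccnd3, and how their shared reads were assigned is not given in the sources used here.

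The promoters of the genes that moved together are shown first, with that of Cdk2, the other kinase, beside them. RefSeq (GRCm38.p6 table) gave promoter windows for 6 of the 10 genes, Ccnb1, Ccnb2, Ccnd3, Ccne1, Cdk1 and Cdk2. Ccna2, Ccnd1, Ccnd2 and Ccne2 had no entry. Each window of 250 bases before the RefSeq start was found at 1 place on its mm9 chromosome, and mm9 coordinates are given. The windows, read 5′ to 3′ on the minus strand, are chr10:68815661-68815910 for Cdk1, chr9:70269362-70269611 for Ccnb2, chr13:101556526-101556691 for Ccnb1 and chr10:128142108-128142357 for Cdk2. For Ccnb1 the 84 bases nearest the start lie inside the GENCODE gene and are not printed. The last 26 bases of the Cdk1 window also lie inside its GENCODE gene and hold 1 of its TTTGAA matches. Capitals mark matches on either strand to 3 sets of letters, TTTGAA (the cell cycle gene homology region, CHR), CCAAT (the CCAAT box) and TTTNNCGC (a core of E2F sites).
Cdk1: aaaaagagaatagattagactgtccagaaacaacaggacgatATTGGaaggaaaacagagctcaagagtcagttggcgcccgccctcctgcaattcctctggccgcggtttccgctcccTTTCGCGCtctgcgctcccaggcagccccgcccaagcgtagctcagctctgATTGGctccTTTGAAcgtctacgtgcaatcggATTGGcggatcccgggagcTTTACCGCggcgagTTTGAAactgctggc
Ccnb2: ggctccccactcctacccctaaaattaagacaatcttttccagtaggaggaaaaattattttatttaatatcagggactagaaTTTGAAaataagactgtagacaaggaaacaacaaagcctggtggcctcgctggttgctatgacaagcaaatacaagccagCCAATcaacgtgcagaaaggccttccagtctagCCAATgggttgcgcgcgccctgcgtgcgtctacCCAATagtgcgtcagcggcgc
Ccnb1: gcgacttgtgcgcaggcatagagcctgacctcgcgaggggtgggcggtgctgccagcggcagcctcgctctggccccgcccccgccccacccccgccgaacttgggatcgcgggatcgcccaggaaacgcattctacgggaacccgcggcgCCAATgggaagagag
Cdk2: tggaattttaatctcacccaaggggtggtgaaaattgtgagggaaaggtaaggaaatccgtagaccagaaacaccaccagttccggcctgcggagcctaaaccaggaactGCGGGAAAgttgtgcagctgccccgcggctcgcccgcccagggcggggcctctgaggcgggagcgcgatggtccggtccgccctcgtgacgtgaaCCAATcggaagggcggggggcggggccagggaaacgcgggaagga
Among 32851 RefSeq windows of the same length, 16.0% held TTTGAA, 33.8% CCAAT and 4.3% TTTNNCGC, and matches of different letters did not overlap in the member windows. The Cdk1 window held 2 TTTGAA, 3 CCAAT and 2 TTTNNCGC matches. Ccnb2 held 1 TTTGAA and 3 CCAAT matches. Ccnb1 held 2 CCAAT matches, 1 of them in the bases that are not printed. Cdk2 held 1 CCAAT and 1 TTTNNCGC match. GGAATG, letters bound by TEAD factors, the DNA-binding partners of YAP, was found in 12.6% of all windows. Among the 7 member windows it occurred in 1, that of an internal Ccnd3 start at chr17:47730166-47730415, which also held 1 CCAAT match. The Ccne1 window and the other Ccnd3 window held none of the 4. These are matches of letters, with no measurement of binding.

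Libraries held 1251396 to 5941357 reads on genes, recovered from the steps between values, with medians of 3152456 in controls, 3652719 at 3 days and 5356541 at 7 days. Depth thus moved with the groups. Spearman correlations between livers of a group were 0.945 to 0.976 in controls, 0.922 to 0.964 after 3 days and 0.974 to 0.986 after 7 days. Xist exceeded Ddx3y in 2 of 4 controls, 2 of 4 livers at 3 days and 3 of 3 at 7 days, so that at 7 days every liver had the female pattern. The Yap1 row ranged from 13.9 to 21.1 eRPKM in controls, 15.3 to 19.3 after 3 days and 17.4 to 19.0 after 7 days. Whether it counts transgene reads is not stated in the sources used here, so it does not check the labels. Markers of hepatocytes were present in every liver, summing to 1004 to 3155 eRPKM in controls, 1231 to 1605 after 3 days and 721 to 804 after 7 days, where 2 of 5 (Ttr and Cyp2e1) fell. The labels number the samples of a group and do not name the mice, so p-values measure the spread between these samples, which may in part be technical.

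After 7 days of YAP induction the mitotic cyclins and their kinase were the members that differed most from control. Ccnb1, Cdk1, Ccna2 and Ccnb2 rose by 9.11-fold to 13.8-fold, and Ccnd3 and Ccne2 rose by 2.19-fold and 2.21-fold. A gene was called when limma gave a Benjamini-Hochberg adjusted p under 0.01 over all tested genes and an absolute log2 fold change above 0.5 on the log2(eRPKM + 0.5) scale. By this rule 6 of the 10 members rose and 0 fell at 7 days, where 18.0% of all tested genes rose and 5.77% fell. All 7-day livers lay above all controls for 9 members, every one but Ccnd2, against 36.7% of all tested genes. The members' median log2 fold change was 1.63, and that of all tested genes was 0.26. The latter was 0.03 with median-ratio size factors and -0.08 with quantile normalization, and member values at 7 days move with it.

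After 3 days no member passed the threshold, and 0.0421% of all tested genes (6 genes) were called as risen. Before adjustment 5 of the 10 members had p under 0.05, and 1718 tested genes (12.1%) did. Ccnb1, Ccnb2 and Cdk1 had an adjusted p under 0.05, as 0.281% of tested genes did when rising. In 4 members (these 3 and Ccne2) all 3-day livers lay above all controls, against 3.38% of all tested genes. The median log2 fold change was 0.79 over the 10 members and 0.02 over all tested genes. Leaving out 3-day liver 1 brought Ccna2, Ccnb1, Ccnb2 and Cdk1 past the threshold, with adjusted p of 0.00617, 0.00236, 0.00632 and 0.00308. The number of all genes called then went from 6 to 54. None of these 4 members passed in the other 25 of 26 alternative fits. Leaving out 3-day liver 2 gave them adjusted p of 0.243, 0.125, 0.153 and 0.104. With only the 2 groups compared the values were 0.213, 0.115, 0.111 and 0.111.

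**Figure D1:**
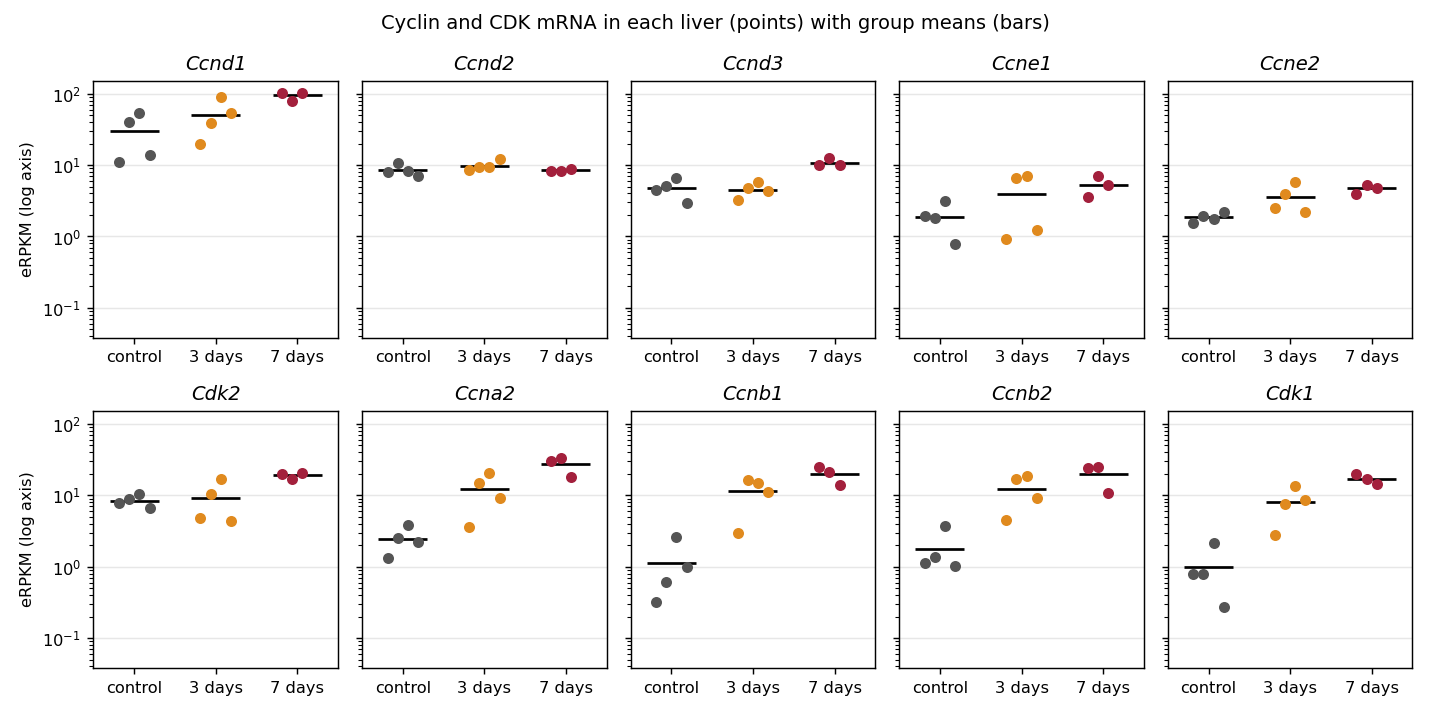
Level of each gene in eRPKM on a log axis for the 4 control livers, 4 livers after 3 days and 3 livers after 7 days of induction, with points for livers and bars for group means. Cdk1 and the A and B cyclins sit at 0.271 to 3.87 in controls and at 10.7 to 33.3 at 7 days, while Ccnd2 stays between 7.08 and 12.0 throughout.

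Cdk1, the kinase that drives entry into mitosis, had the lowest mean of the members in controls, although Ccnb1 was lower in control livers 1 and 2. It measured 0.783, 0.802, 2.11 and 0.271 eRPKM in control livers 1 to 4. At 3 days it measured 2.80, 7.57, 13.5 and 8.57, and at 7 days 20.01, 17.1 and 14.3. The 3 groups did not overlap at all, with every 3-day liver above every control and every 7-day liver above every 3-day liver. Against control, Cdk1 differed by 2.49 on the log2 scale (SE 0.43) at 3 days, with an adjusted p of 0.0307. At 7 days it had risen by 3.69 (SE 0.46), with an adjusted p of 6.86e-05. From 3 to 7 days it was 1.20 (SE 0.46), which missed the threshold with an adjusted p of 0.0596. Control values rest on few reads, 38 over the 4 livers (95% exact Poisson interval 26.9 to 52.2, counting error only) and 1 in control liver 4.

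Ccnb1, a B cyclin that carries Cdk1 into mitosis, had a 7-day difference from control as large as that of Cdk1 within their errors. Controls 1 to 4 measured 0.323, 0.609, 2.61 and 1.005 eRPKM, from 29 reads in all (interval 19.4 to 41.6). The 3-day livers measured 2.99, 16.2, 15.0 and 11.04, and the 7-day livers 25.2, 20.9 and 13.7. Even the lowest 3-day liver exceeded the highest control, though by little (2.99 against 2.61), and the 3-day and 7-day livers overlapped. Day 3 gave a log2 fold change of 2.81 (SE 0.50) with an adjusted p of 0.0371. By day 7 it had risen by 3.79 (SE 0.54), with an adjusted p of 0.000173. The difference of 0.97 (SE 0.54) between the time points was not past the threshold (adjusted p = 0.174).

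Ccnb2, the other B cyclin measured here, followed closely. Its values were 1.13, 1.37, 3.66 and 1.01 eRPKM in controls, 4.49, 16.7, 18.6 and 9.23 at 3 days and 24.2, 24.6 and 10.7 at 7 days. Control liver 3 stood apart from the other controls, and 7-day liver 3 lay below 2 of the 3-day livers. Controls 1 to 4 rest on 7, 12, 14 and 2 reads. On the log2 scale Ccnb2 differed from control by 2.43 (SE 0.45), adjusted p = 0.0485, after 3 days, and rose by 3.19 (SE 0.49), adjusted p = 0.000297, after 7. The ratio of Ccnb1 to Ccnb2 within a liver ran from 0.285 to 0.998 in controls, 0.665 to 1.20 after 3 days and 0.852 to 1.29 after 7 days, with overlap between neighbouring groups.

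Ccna2, the cyclin of DNA synthesis and early mitosis, reached the second highest mean of the 10 at 7 days. Its controls measured 1.33, 2.51, 3.87 and 2.21 eRPKM. At 3 days it measured 3.63, 15.0, 20.4 and 9.28, and at 7 days 30.6, 33.3 and 18.1. The 3-day liver 1 fell within the control range and 7-day liver 3 within the 3-day range, while controls and 7-day livers were apart. Its log2 fold change of 1.91 (SE 0.44) after 3 days had an adjusted p of 0.0884. That of 3.25 (SE 0.47) after 7 days had an adjusted p of 0.000205. From 3 to 7 days it was 1.33 (SE 0.47, adjusted p = 0.0435), short of the threshold.

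For Ccna2, Ccnb1, Ccnb2 and Cdk1 the exact two-sided permutation test gave 0.0286 at 7 days, the smallest p that 35 splits of 4 and 3 livers allow. At 3 days it gave 0.0286 for Ccnb1, Ccnb2 and Cdk1, also the smallest for 70 splits of 4 and 4, and 0.0571 for Ccna2. Among libraries with more Xist than Ddx3y (2 controls, 2 livers at 3 days, 3 at 7 days) the 7-day log2 fold changes were 2.89 for Ccna2, 3.42 for Ccnb1, 2.77 for Ccnb2 and 3.25 for Cdk1. All 4 remained past the threshold there, with adjusted p of 0.000308 to 0.00311.

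**Figure D2:**
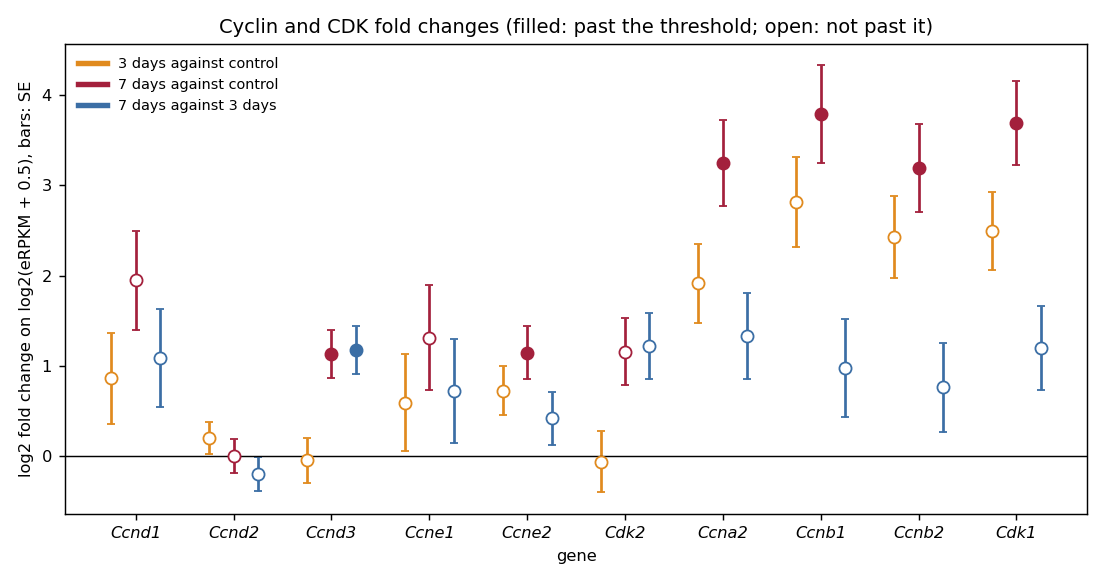
The log2 fold change of each gene on the log2(eRPKM + 0.5) scale with its standard error, for the induced groups against control and for the later against the earlier one, with filled points past the threshold. At 7 days against control 6 genes are filled, at 3 days none, and between the time points only Ccnd3.

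Ccnd1, the D cyclin that mitogens raise in hepatocytes, was the most abundant member per kilobase in every group. Controls 1 to 4 measured 10.95, 39.7, 54.2 and 13.6 eRPKM, with a mean of 29.6 ± 20.9 (SD, n = 4). At 3 days it measured 19.5, 38.7, 89.5 and 54.4, and at 7 days 103, 78.9 and 101. The 7-day livers all exceeded the controls, and the 3-day livers spread over the control and the 7-day range. Ccnd1 differed from control by a log2 fold change of 0.86 (SE 0.51) after 3 days, adjusted p = 0.523. After 7 days the value was 1.95 (SE 0.55), whose adjusted p of 0.0138 fell short of the threshold. Without 3-day liver 1 or 3-day liver 3 the 7-day difference passed it, as it did without control liver 3. Control livers 2 and 3, the higher ones, were those with more Xist than Ddx3y, and within such libraries the 7-day log2 fold change was 1.01 (SE 0.25, adjusted p = 0.0163).

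Ccnd2 was the one member with no shift at 7 days in the deposited scale. It measured 8.08, 10.8, 8.15 and 7.08 eRPKM in controls, 8.55, 9.37, 9.37 and 12.0 at 3 days and 8.18, 8.22 and 8.87 at 7 days. All 3 groups overlapped, and the 7-day livers spanned the narrowest range of any member, 8.42 ± 0.392 (SD, n = 3). Log2 fold changes against control were 0.20 (SE 0.18) after 3 days, adjusted p = 0.682, and -0.00022 (SE 0.19) after 7 days, adjusted p = 0.9996. The size of this value moved with the scaling between libraries. With size factors the 7-day value was -0.25 (adjusted p = 0.219), and with quantile normalization it was -0.59 (adjusted p = 0.00828), which passes the threshold as a fall.

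Ccnd3 kept the control level at 3 days and stood higher at 7 days. Controls measured 4.49, 5.05, 6.57 and 2.96 eRPKM and the 3-day livers 3.23, 4.74, 5.87 and 4.27. The 7-day livers measured 9.90, 12.4 and 9.95, above every other liver. Against control the log2 difference was -0.05 (SE 0.25) after 3 days, adjusted p = 0.960. After 7 days Ccnd3 had risen by 1.13 (SE 0.27), adjusted p = 0.00513. From 3 to 7 days it was 1.18 (SE 0.27, adjusted p = 0.00499), and Ccnd3 was the 1 member called in that comparison, where 14.0% of all tested genes rose and 5.31% fell. All 7-day livers lay above all 3-day livers for Ccnd3, Cdk1 and Cdk2, 3 of 10 members against 31.3% of all tested genes, so neither count stands above that of all genes. Bysl, which shares exon bases with Ccnd3, had a 7-day log2 fold change of 1.16 (adjusted p = 0.0125), and its part in the Ccnd3 value was not tested. With quantile normalization the 7-day value was 0.58 (adjusted p = 0.0287), and among libraries with more Xist than Ddx3y it was 0.84 (adjusted p = 0.0334), both short of the threshold. It also missed the threshold with log2 depth as a covariate (0.83, adjusted p = 0.0668), and without control liver 1 or any 1 of the 7-day livers. The call from 3 to 7 days was likewise lost without any 1 of the 7-day livers and without 3-day liver 1, 2 or 4, where the log2 fold change stayed at 1.05 to 1.23.

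The make-up of the D cyclins was read within each liver. Ccnd1 made up 46.6% to 78.6% of the summed D cyclin eRPKM in controls, 62.3% to 85.4% after 3 days and 79.3% to 85.1% after 7 days. The share of Ccnd2 was 11.8% to 34.3% in controls and 6.74% to 8.26% at 7 days, with no overlap. The sum itself was 23.5 to 68.9 eRPKM in controls, 31.3 to 105 after 3 days and 99.5 to 121 after 7 days. All 7-day livers had more Xist than Ddx3y. Control livers 2 and 3 did too, with Ccnd1 shares of 71.5% and 78.6%. Their Ccnd2 shares were 19.4% and 11.8%, and their sums 55.5 and 68.9 eRPKM. In 3-day livers 3 and 4, also of that pattern, Ccnd1 made up 85.4% and 77.0%. In livers of the other pattern it made up 46.6% and 57.6% in controls and 62.3% and 73.3% after 3 days. The part of this pattern in the shares was not tested. A single factor per library leaves ratios of members within a liver as they are, while quantile normalization changes them, and ratios here are of the deposited values. Ccnd3 was below Ccnd2 in all 8 control and 3-day livers, with ratios of 0.356 to 0.806, and above it in all 3 livers at 7 days, with ratios of 1.12 to 1.51. The ratio of Ccnd1 to Ccnd2 was 1.36 to 6.65 in controls, 2.28 to 9.55 after 3 days and 9.60 to 12.6 after 7 days. These are descriptions with no test.

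**Figure D3:**
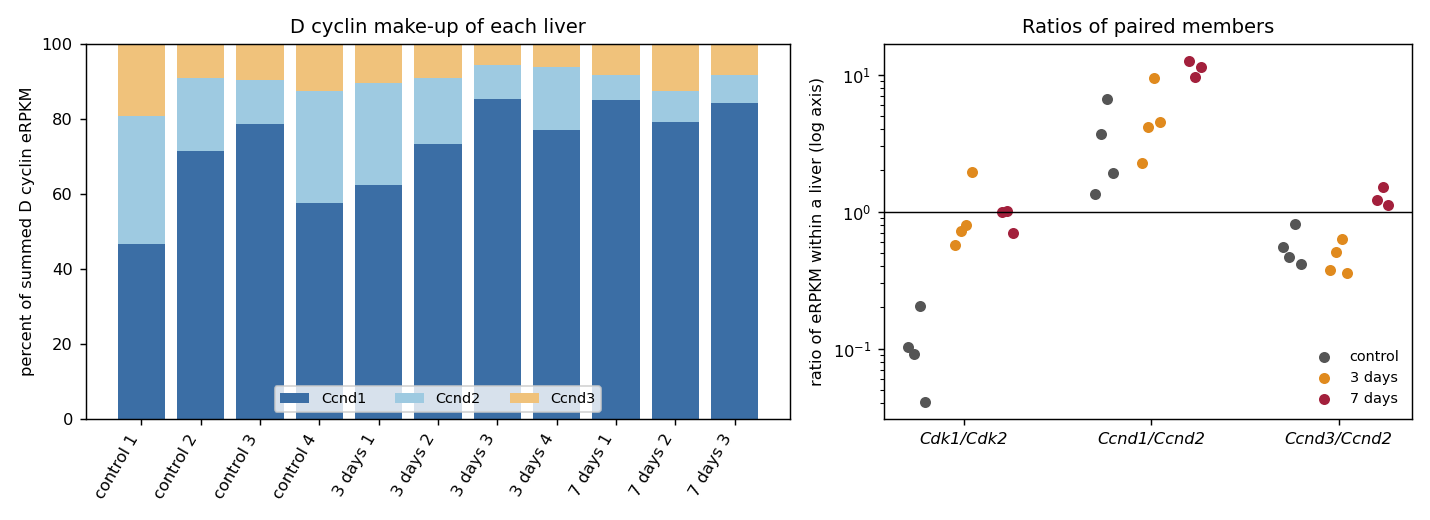
Left, the percent of summed D cyclin eRPKM that Ccnd1, Ccnd2 and Ccnd3 made up in each liver. Right, ratios of eRPKM within a liver on a log axis, with a line at 1, where the Cdk1 to Cdk2 ratio is 0.0407 to 0.206 in controls and 0.701 to 1.01 at 7 days and the Ccnd3 to Ccnd2 ratio exceeds 1 in the 7-day livers alone.

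Cdk2, the kinase partner of E cyclins and Ccna2, was a higher expressed kinase than Cdk1 in every control. Controls measured 7.69, 8.82, 10.3 and 6.67 eRPKM. The 3-day livers measured 4.87, 10.6, 16.7 and 4.36, on either side of the controls, with 2 below all of them and 2 above. At 7 days it measured 20.1, 16.9 and 20.4, above all other livers. Cdk2 had a log2 fold change of -0.06 (SE 0.34) after 3 days, adjusted p = 0.964, and of 1.16 (SE 0.37) after 7 days, adjusted p = 0.02501. Between the time points it was 1.22 (SE 0.37), adjusted p = 0.0219, and none of the 3 passed the threshold. Without 3-day liver 3 Cdk2 passed in both comparisons that involve 7 days, as it did with the label suffix MF as a covariate. It also passed at 7 days against control with only the 2 groups compared, and from 3 to 7 days with limma-voom on recovered reads. In each of these comparisons it stayed short of the threshold in 23 of 26 alternative fits. The Cdk1 to Cdk2 ratio within a liver was 0.0407 to 0.206 in controls, 0.575 to 1.96 after 3 days and 0.701 to 1.01 after 7 days, so that every induced liver lay above every control.

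Ccne1, an E cyclin, fell into separate levels among the 3-day livers. Controls measured 1.91, 1.80, 3.09 and 0.793 eRPKM, from 52 reads in all and 2 in control liver 4. At 3 days livers 2 and 3 measured 6.56 and 7.14 (48 and 53 reads). Livers 1 and 4 measured 0.931 and 1.21, from only 5 and 9 reads. At 7 days it measured 3.61, 6.92 and 5.23, above all controls. Neither difference from control passed, with log2 fold changes of 0.59 (SE 0.54, adjusted p = 0.694) for 3 days and 1.31 (SE 0.58, adjusted p = 0.0915) for 7. Livers 1 and 4 at 3 days were also the lower ones for Cdk2 and Ccne2, and their labels carry the suffix MF, whose meaning is not stated. The other library with that suffix, 7-day liver 2, was the highest 7-day liver for Ccne1 (6.92) and Ccne2 (5.27) and the lowest for Cdk2 (16.9). With the suffix as a covariate the 7-day log2 fold change of Cdk2 was 1.48 (SE 0.27, adjusted p = 0.00121), past the threshold. That of Ccne1 was 1.68 (adjusted p = 0.0258), short of it. The part in these values of what the suffix stands for was not tested. The Xist and Ddx3y patterns of 3-day livers 1 and 4 differed from each other.

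Ccne2, the other E cyclin, differed less from liver to liver. It measured 1.55, 1.92, 1.75 and 2.17 eRPKM in controls, 2.49, 3.91, 5.74 and 2.21 at 3 days and 3.997, 5.27 and 4.83 at 7 days. All induced livers were above all controls, though the nearest pair was 2.21 (3-day liver 4, 27 reads) against 2.17 (control liver 4, 9 reads). Ccne2 differed from control by 0.73 on the log2 scale (SE 0.27) after 3 days, adjusted p = 0.296. It rose by 1.15 (SE 0.29) after 7 days, adjusted p = 0.00824, and 15 of 26 alternatives ended that call, among them size factors (0.91, adjusted p = 0.0229), quantile normalization (0.48, adjusted p = 0.158) and each 7-day or control liver left out. Ints8, with which Ccne2 shares exon bases, had a 7-day log2 fold change of 0.12 (adjusted p = 0.700). The ratio of Ccna2 to Ccne2 was 0.858 to 2.21 in controls, 1.46 to 4.196 after 3 days and 3.76 to 7.66 after 7 days. The ratio of Ccne1 to Ccne2 overlapped between all groups.

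In order of mean eRPKM, controls ran from Ccnd1 (29.6) through Ccnd2 (8.51), Cdk2 (8.36), Ccnd3 (4.77), Ccna2 (2.48), Ccne1 (1.90), Ccne2 (1.85), Ccnb2 (1.79) and Ccnb1 (1.14) to Cdk1 (0.993). Ccnd1 and Ccnd2 did not overlap in controls, nor did Cdk2 and Ccnd3. Among neighbours whose ranges overlapped, Ccnd3 was above Ccna2 and Ccnb2 above Ccnb1 in all 4 controls, and the order of the others changed from liver to liver. In control liver 4 Ccnb2 and Ccnb1 were nearly equal, at 1.007 and 1.005 eRPKM from 2 and 3 reads, so their order there is not resolved. At 7 days the order was Ccnd1 (94.4), Ccna2 (27.3), Ccnb1 (19.9), Ccnb2 (19.8), Cdk2 (19.1), Cdk1 (17.1), Ccnd3 (10.7), Ccnd2 (8.42), Ccne1 (5.25) and Ccne2 (4.70). The members from Ccna2 to Cdk1 overlapped in that order, with Ccna2 above Ccnb1 in all 3 livers and no fixed order among the rest, and Ccne1 and Ccne2 also changed places. Ccnd3 lay above Ccnd2 in every 7-day liver.

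Livers of a group tended to be high or low in many members together. Control liver 3 was the highest control for 8 of 10 members and control liver 4, the shallowest library, the lowest for 6. At 3 days liver 3 was highest for 8 members and liver 1 lowest for 8. At 7 days no liver was highest or lowest in more than 5. Centred on each gene's mean over the 11 livers, the members' median log2 value was -0.76 in 3-day liver 1 and 1.11 in 3-day liver 3, against 0.87 to 1.10 in the 7-day livers.

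**Figure D4:**
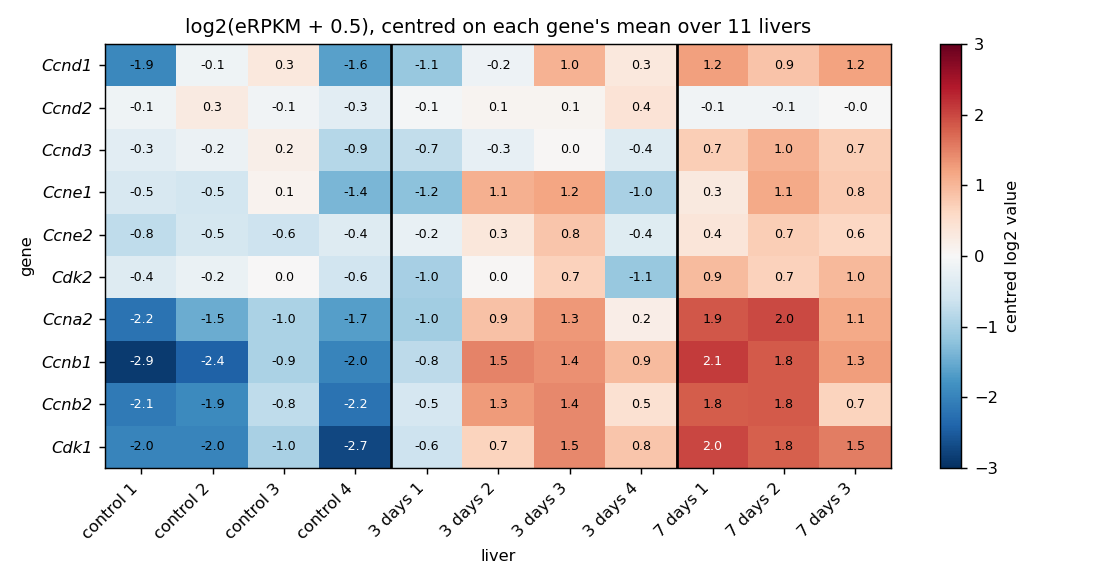
Values of log2(eRPKM + 0.5) for the 10 genes in 11 livers, each gene centred on its own mean, with black lines between groups. Liver 1 at 3 days is below 0 for all 10 genes and liver 3 at 3 days is at or above 0 for all 10, as the 7-day livers are for all but Ccnd2.

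Genes outside the list with the most similar pattern were found by the mean absolute difference between centred log2 values over the 11 livers, among 12559 genes with a mean of at least 1 eRPKM. For Ccna2 these were Pbk (0.18), Top2a (0.21) and Anln (0.24). For Cdk1 they were Ckap2l (0.24), Ttk (0.25) and Ect2 (0.30), for Ccnb2 Kif20a (0.26), Cdca3 (0.27) and Ckap2l (0.31), and for Ccnb1 Cdc20 (0.33), Hist1h3b (0.36) and Cdca3 (0.38). Several are textbook genes of mitosis, such as the spindle checkpoint kinase Ttk and the topoisomerase Top2a. For Ccne2 the nearest were Spc24 (0.17), Rfc5 (0.18) and Pepd (0.21). For Ccnd1 they were Celsr1 (0.28), Smim3 (0.29) and Atad5 (0.31), for Ccnd3 Erf (0.11), Nod1 (0.12) and Tecpr2 (0.12), and for Ccnd2, whose own pattern is flat, Cdc42ep4 (0.07), Mrpl42 (0.08) and Btd (0.08). For Cdk2 they were Myo1e (0.11), Chek2 (0.12) and Jarid2 (0.13), and for Ccne1 Purb, Gm7694 and Spint2 at 0.34 to 0.35. Within the list the closest pair was Ccnb2 and Cdk1 (0.28), followed by Ccnd3 and Cdk2 (0.30).

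The kinases that D cyclins use, Cdk4 and Cdk6, had 7-day log2 fold changes of 0.75 (SE 0.21, adjusted p = 0.0147) and 1.37 (SE 0.32, adjusted p = 0.00484). Cdk6 thus rose, from 8.34 ± 2.26 (SD, n = 4) to 21.8 ± 2.87 eRPKM (n = 3). Cdk4, at 34.5 ± 8.36 and 57.1 ± 2.93, did not pass with the deposited scaling. Of 16 tested CDKs outside the list, 4 rose at 7 days (Cdk6, Cdk14, Cdk16 and Cdk9) and 1 fell (Cdk8, a kinase of the Mediator complex, by 0.72), where 18.0% of all tested genes rose and 5.77% fell, so these counts are near the background. Cdk14 had a log2 fold change of 1.22 (adjusted p = 0.00169) and Cdk16 one of 0.89 (adjusted p = 0.00471). With size factors 3 rose (Cdk6, Cdk9 and Cdk14) and 2 fell (Cdk8 and Cdk17). With quantile normalization 2 rose (Cdk4 and Cdk6) and 2 fell (Cdk8 and Cdk17). Of 14 tested cyclins outside the list 0 rose and 0 fell at 7 days, with a median of 0.02. With size factors 0 rose and 2 fell (Ccnc and Ccnl2), and with quantile normalization 1 rose and 3 fell. From 3 to 7 days Ccnc, the cyclin partner of Cdk8, fell by 0.83 (adjusted p = 0.00737).

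Of 7 CDK inhibitors 5 were tested. At 7 days 4 of the 5 rose with the deposited scaling (18.0% of all tested genes did), 3 with size factors and 2 with quantile normalization, which were Cdkn1a and Cdkn2c. Cdkn1a (p21, an inhibitor of Cdk2 complexes and a p53 target) went from 1.29 ± 0.546 eRPKM (SD, n = 4) in controls and 3.36 ± 1.88 (n = 4) at 3 days to 28.8 ± 2.34 (n = 3) at 7 days. Its log2 fold change of 0.94 (SE 0.42) after 3 days had an adjusted p of 0.395. After 7 days it had risen by 4.07 (SE 0.45, adjusted p = 3.14e-05). This value was above that of each of the 10 members, though within the errors of Ccnb1 (3.79, SE 0.54). Between the time points the log2 fold change of Cdkn1a was 3.13 (SE 0.45, adjusted p = 0.000236). Cdkn2c, an INK4 inhibitor of Cdk4 and Cdk6, had a 7-day value of 1.78 (adjusted p = 0.00107), Cdkn2b 1.24 (adjusted p = 0.00250) and Cdkn1b (p27) 0.71 (adjusted p = 0.00584). Cdkn1c had 0.48 (adjusted p = 0.387). Cdkn2a and Cdkn2d, with at most 5 reads in a library, were below the filter and not tested.

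A list of 8 tested genes held activators and partners of CDKs and the kinases Pkmyt1 and Wee1, which restrain them, and 5 of the 8 rose at 7 days, against 18.0% of all tested genes. Pkmyt1, a kinase that holds Cdk1 inactive, had a log2 fold change of 3.33 (adjusted p = 0.000135). The phosphatases Cdc25b and Cdc25c, which activate CDKs, had 2.45 (adjusted p = 0.000116) and 2.28 (adjusted p = 0.00295), and Cdc25a and Cks1b also rose. Of 12 tested genes of cyclin destruction 5 rose at 7 days, against the same 18.0%. Cdc20, which directs the anaphase-promoting complex to B cyclins, had 3.82 (adjusted p = 0.000900), its partner enzyme Ube2c 2.49 (adjusted p = 0.000366) and its inhibitor Fbxo5 1.83 (adjusted p = 0.000866), with Ube2s and Skp2 also risen. With size factors each of these lists had 4 that rose, and the destruction list 1 that fell. All 8 proliferation markers rose at 7 days under each scaling, among them Aurkb (4.28), Mcm5 (3.70) and Mki67 (3.67). No gene of these 6 lists was called at 3 days under any of these scalings, where 0.0421% of all tested genes rose with the deposited one.

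Macrophage markers were the list of other cells with the most calls at 7 days, and 18.0% of all tested genes rose and 5.77% fell in that comparison. Summed over the 4 Kupffer cell and macrophage markers in the table they measured 86.1 to 172 eRPKM in controls, 98.2 to 189 after 3 days and 402 to 423 after 7 days, and 3 of 4 (Cd68, Csf1r and Marco) rose. The 5 cholangiocyte markers summed to 4.37 to 5.63, 4.68 to 6.26 and 11.7 to 15.5 eRPKM, with 1 of 4 tested (Krt7) risen. Endothelial markers summed to 102 to 182, 121 to 219 and 150 to 163 eRPKM, with 1 of 5 (Cdh5) risen. From 3 to 7 days Cdh5 rose and Clec4g, of the same list, fell, where 14.0% of all tested genes rose and 5.31% fell. T cell markers summed to 2.92 to 6.80, 2.31 to 5.91 and 4.60 to 8.81 eRPKM with 1 of 5 (Cd4) risen, and B cell markers to 3.75 to 8.60, 1.37 to 3.34 and 4.64 to 12.4 with 0 of 4. Stellate cell markers summed to 59.8 to 95.8, 48.6 to 98.9 and 38.4 to 42.7 eRPKM, with 1 of 5 (Reln) fallen. Erythroid markers summed to 45.3 to 108, 32.4 to 70.3 and 26.9 to 32.7, with 1 of 2 tested (Hbb-b1) fallen. No list had a marker at 0 in all libraries of a group. Marker calls were made with the deposited scaling alone. The part of these cells in the cyclin values was not tested.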

How the data were processed

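Bulk RNA-seq of 11 livers was analysed, grouped by their labels. The authors aligned read pairs without strand to mm9 with TopHat2 2.0.8, and featureCounts 1.4.5-p1 is named in the submitters' processing notes. The gene annotation used for counting is not given in the sources used here. The authors deposited RPKM values (eRPKM) per library and the mean, log2 fold change and adjusted p of their own DESeq2 comparison of 7 days with control, which were not used. All 177553 values above 0 (100%) lay within 0.1 of a whole read, which gave the depth.

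Genes reaching 0.5 eRPKM in 3 or more libraries were fitted with limma 3.58.1 (R 4.3.3, eBayes with trend) on log2(eRPKM + 0.5), the 3 groups in 1 fit without covariates. The study's thresholds were kept for calls, a p adjusted by Benjamini and Hochberg of less than 0.01 with a log2 fold change beyond 0.5 in either direction. A fold change on this scale understates that of low genes. The fit was also run on simulated data with a common spread for all genes and no shift of the unchanged genes. That setting is simpler than these livers, and its outcome is not given here. Exact permutation tests were two-sided and unadjusted. Named genes are all 10 members, the 3 nearest outside genes for each, from each pathway list the called genes, mainly the 3 largest at 7 days, all CDK inhibitors, Cdk4, Cdk6, Xist and Ddx3y. Yap1 was added later. The members and lists were chosen with earlier results of these data known. Tables and plots were made with pandas 2.3.3 and matplotlib 3.10.9 (Python 3.11.15), Poisson intervals with scipy 1.17.1 and permutations with numpy 2.4.6. Alternatives covered pseudocount, filter, scaling, spread model, covariates, samples, voom and each library left out.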

Additional observations from a re-analysis of the deposited data

Results flagged for a closer look

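Among the control livers Ccnb2 was 3.66 eRPKM (14 reads) in control liver 3 and 1.01 to 1.37 (2 to 12 reads) in the other 3. The gap to the nearest control was 0.862 of the group's range, above Dixon's 95% limit for 4 samples. It was the 1 set past the limit among 20 sets of 4 livers (10 members in controls and at 3 days), where chance passes about 1 in 20. Control liver 3 was also the highest control for 7 other members.

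The 7-day and 3-day effects on Ccnd3, both against the same controls, differed. The difference itself was a log2 fold change of 1.18 (SE 0.27, limma adjusted p = 0.00499), with all 3 livers at 7 days above all 4 at 3 days. The size held between 0.64 and 1.303 over 26 alternatives, and 11 of them took the adjusted p past 0.01, to 0.0280 at most.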

How the results depend on the processing

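Against control at 7 days Ccna2, Ccnb1, Ccnb2 and Cdk1 kept direction and call under all 26 alternatives. Ccnd3 lost its call under 9 and Ccne2 under 15. Ccnd1 gained one under 8 (adjusted p 0.00490 to 0.00980 in these, up to 0.160 over all 26) and Cdk2 under 3. Of the member values under alternatives, 712 kept direction and call, 35 lost the call, 20 gained one and 13 changed sign, and the cause was not tested. The members called at 7 days numbered 4 to 8 with 1 library left out. Depth limits the low control values of Ccnb1, Ccnb2, Cdk1 and Ccne1 (29, 35, 38 and 52 reads over the 4 livers). Control values of Ccne2 and Ccna2 rest on 78 and 90 reads.

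Genes called at 3 days (6) became 3 without a filter, 12 with size factors, 0 with only the 2 groups compared, 0 without trend, 10 with the MF suffix, 16 with Xist and 1 with depth as a covariate, 1 with voom on recovered reads, 41 at an adjusted p under 0.05 and 0 to 54 with 1 library left out. Members called at 3 days (0) became 3 at an adjusted p under 0.05 and 0 to 4 with 1 library left out. At 7 days against control (3383 genes) counts were 1676 with depth as a covariate, 2128 among libraries with more Xist than Ddx3y, 5390 at an adjusted p under 0.05 and 2057 to 3684 with 1 library left out. At 7 against 3 days (2753 genes) they were 1679, 1424, 5085 and 1412 to 3683. Members called there (1) became 2 with the MF suffix, 0 with Xist, 0 with depth, 0 among libraries with more Xist than Ddx3y, 2 with voom, 3 at an adjusted p under 0.05 and 0 to 2 with 1 library left out.

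Genes that rose and fell at 7 days numbered 2561 and 822 as deposited, 1951 and 1254 with size factors and 1857 and 1821 with quantile normalization. Against 3 days they were 1997 and 756, 1515 and 1181, and 1436 and 1430.

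Signs changed for Ccnd3 at 3 days with the MF suffix (0.028) and without 1 library (-0.23 to 0.11), turning positive without control liver 3 or 3-day liver 1. They changed for Cdk2 at 3 days with the MF suffix (0.42) and without 1 library (-0.41 to 0.20), turning positive without control liver 3, 3-day liver 1 or 3-day liver 4. For Ccnd2 at 7 days they changed with a pseudocount of 0.1 (0.00044) and without 1 library (-0.078 to 0.11), turning positive without control liver 2, 7-day liver 1 or 7-day liver 2, and for Ccne2 from 3 to 7 days with quantile normalization (-0.26).

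Deviations of same-numbered livers correlated at -0.222 to 0.269, and those of differently numbered livers of 2 groups at -0.275 to 0.238. The ranges overlap, so the numbers showed no clear pairing, which these correlations cannot exclude. With a replicate block 3 genes were called at 3 days and 0 members from 3 to 7 days, and Ccnd2 at 7 days was 0.0084. The calls of Ccnd3 and Ccne2 at 7 days were not made in that fit.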
